A study of Mus musculus with 288 samples.

Results

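Messenger RNA of the cytochrome P450 enzymes Cyp2f2, Cyp4b1, Cyp2a5, Cyp2b10, Cyp2s1 and Cyp1a1, and of Por, the reductase that passes electrons to them, was followed across single sorted mouse lung cells. The members were the rows of these 7 gene symbols among the 24781 genes of the deposited count table, in wells titled as single cells with more than 2340 counts in all. The limit was 10 times the total of the higher of 2 negative control wells, which held 234 and 41 counts. Of 286 wells with a sorted cell, 227 passed, and 6 of the 7 members had a count in at least 1 of them. Both controls held 0 counts of every member.

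All cells came from C57BL/6 mice aged 4 months with the genotype Scgb1a1-CreER;Rosa26-mTmG. The transgene puts an inducible recombinase under the promoter of Scgb1a1, the secretoglobin of club cells, and the reporter marks cells in which it has acted. The sort took Epcam+ cells that were positive for the Scgb1a1 label, had little CD24 and lacked CD45 and CD31. No label ties a cell to an animal, so all cells form 1 sample, and every interval below covers counting error only.

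Cytochrome P450 enzymes are heme proteins, most of them in the endoplasmic reticulum, that insert an oxygen atom into drugs, pollutants, fatty acids and steroids. The microsomal ones receive their electrons from NADPH through Por. In the mouse lung the club cells of the airways are known for high P450 content, which makes them a target of toxins that these enzymes activate.

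The kept wells fell into 4 classes, taken in this order. There were 63 Sftpc wells, in which surfactant protein C of alveolar type 2 cells made up at least 1% of the counts, and 74 Scgb3a1 wells, in which that secretoglobin reached 1%. There were 7 ciliated-marker wells, in which at least 3 of 12 genes of ciliated cells had a count, and 83 other wells. The median total was 3529 counts in Sftpc wells, 6940.5 in Scgb3a1 wells, 5522 in ciliated-marker wells and 5397 in other wells. The lowest Sftpc share inside its class was 2.07% and the highest outside was 0.734%, while for Scgb3a1 the values nearest the limit were 1.01% inside and 0.876% outside. All 10 genes of the alveolar type 2 list were at least 2-fold higher in Sftpc wells than in other wells, and all 8 of the club list were at least 2-fold lower. The first list holds Sftpc and the second Scgb3a1, which the class rules used. Levels are given as CPM, counts scaled to a total of 1000000. The club list summed to 58406 CPM in Sftpc wells, 344489 in Scgb3a1 wells, 175823 in ciliated-marker wells and 379672 in other wells. Goblet genes summed to 5283 CPM in Scgb3a1 wells against 182 CPM in other wells. Of the leukocyte list at most 1 of 5 genes had a count in any class, with summed levels of 4.15 CPM in Sftpc wells, 1.95 in Scgb3a1 wells, 0 in ciliated-marker wells and 10.7 in other wells. The endothelial list summed to 12.5 CPM in Sftpc wells, 3.90 in Scgb3a1 wells, 0 in ciliated-marker wells and 32.0 in other wells, and Ptprc and Pecam1 had 0 counts. One well met both the Scgb3a1 and the ciliated rule, with 11 ciliated genes and 2.12% Scgb3a1, and was held in the Scgb3a1 class. The columns of the table form 3 sets of 96, whose meaning the labels do not give. From the first to the last set they held 6, 17 and 40 Sftpc wells, 38, 31 and 5 Scgb3a1 wells, 1, 1 and 5 ciliated-marker wells, and 37, 32 and 14 other wells.

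Cyp2f2, which in the mouse activates naphthalene in club cells, made up most of the P450 messenger RNA. The table listed 94 P450 genes, of which 26 had a count in a kept well and 68 were at 0. Together they gave 19178 counts, and Cyp2f2 gave 91.7% of these, or 92.7% when counts were divided by exon length. Per kb of exon, over all kept wells, Cyp2f2 had 8684 counts, Cyp4b1 327, Cyp2a5 181, Cyp2b10 48.8 and Cyp2s1 13.4. The lengths take in all annotated exons of a gene, and whether counts scale with length here was not tested. Of the P450 genes that are not members, 5 reached 20 counts, namely Cyp2a4 with 42, Cyp2j6 with 39, Cyp4f15 with 37, Cyp39a1 with 34 and Cyp4v3 with 29, and 16 more had fewer. The family summed to 2435 CPM in Sftpc wells, 15209 in Scgb3a1 wells, 11740 in ciliated-marker wells and 22108 in other wells. Cyp2f2 held 85.5% of the family counts in Sftpc wells, 88.8% in Scgb3a1 wells, 81.8% in ciliated-marker wells and 94.7% in other wells.

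Cyp2s1, Cyp2b10, Cyp2a5 and Cyp2f2 lie within 1331 kb of chromosome 7 on GRCm38, the assembly also called mm10, as annotated in GENCODE M21. Cyp2s1 starts the stretch at 25802475 and Cyp2f2 ends it at 27133660, with Cyp2b10 at 25897620 to 25926624 and Cyp2a5 at 26835305 to 26843548 between them. Of the 12 P450 genes of the table in this stretch, 6 had a count. Cyp4b1 lies on chromosome 4, Por on chromosome 5 and Cyp1a1 on chromosome 9. Neighbours in the stretch had unlike distributions over the classes, described below.

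The promoters of 4 members are shown because their messenger RNA was highest in different classes or, for Cyp1a1, was at 0. Each window is from RefSeq on GRCm38.p6 and runs from 250 bases before to 50 after the annotated start, 5′ to 3′. Capitals mark matches, on either strand, to TATAAA (the TATA box), TTGCNNAA (a C/EBP site) and GCGTG (the core bound by the aryl hydrocarbon receptor with Arnt).
Cyp2f2, chr7:27119705-27120004, plus strand: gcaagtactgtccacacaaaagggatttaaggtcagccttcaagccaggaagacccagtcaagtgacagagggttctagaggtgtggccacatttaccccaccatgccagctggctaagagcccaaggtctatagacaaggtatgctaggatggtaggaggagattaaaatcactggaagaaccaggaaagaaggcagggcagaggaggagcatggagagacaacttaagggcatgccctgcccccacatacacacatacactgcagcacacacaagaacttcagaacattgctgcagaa
Cyp2a5, chr7:26835089-26835388, plus strand: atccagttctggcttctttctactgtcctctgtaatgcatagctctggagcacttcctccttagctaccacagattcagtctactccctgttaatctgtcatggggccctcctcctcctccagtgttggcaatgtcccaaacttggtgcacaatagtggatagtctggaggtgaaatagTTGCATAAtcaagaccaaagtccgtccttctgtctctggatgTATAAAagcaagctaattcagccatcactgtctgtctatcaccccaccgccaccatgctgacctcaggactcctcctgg
Cyp2s1, chr7:25816476-25816775, minus strand: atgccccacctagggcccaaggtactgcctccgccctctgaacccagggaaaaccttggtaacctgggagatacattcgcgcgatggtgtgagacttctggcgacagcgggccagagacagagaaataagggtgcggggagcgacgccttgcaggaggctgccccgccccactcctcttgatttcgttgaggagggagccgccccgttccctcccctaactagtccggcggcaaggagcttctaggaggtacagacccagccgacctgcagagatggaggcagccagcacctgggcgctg
Cyp1a1, chr9:57697363-57697662, plus strand: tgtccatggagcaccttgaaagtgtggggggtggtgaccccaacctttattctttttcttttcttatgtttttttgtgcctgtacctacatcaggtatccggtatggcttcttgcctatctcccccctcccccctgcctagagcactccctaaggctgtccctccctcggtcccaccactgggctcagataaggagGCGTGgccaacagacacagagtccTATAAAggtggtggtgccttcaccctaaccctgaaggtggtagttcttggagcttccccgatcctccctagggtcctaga
Windows were found for all 7 members. TATAAA was present in Cyp2a5, starting at -29, and in Cyp1a1, starting at -30, and in 13.6% of all 32851 windows. TTGCNNAA was present in Cyp2a5 at -71 and in Cyp2b10 at -58, and in 10.8% of windows. GCGTG was present once in Cyp1a1 at -54, at 2 places in Cyp2b10 and at 3 in Por, and in 32.4% of windows. CTCAAG, a core bound by Nkx2-1, was found in Por alone of the members and in 15.9% of windows. Neither GTAAACA, a forkhead site found in 3.65% of windows, nor GTTGCC, an Rfx site found in 12.5%, was in a member's window. The printed Cyp2f2 and Cyp2s1 windows held none of the motifs searched. A match describes letters only.

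**Figure D1:**
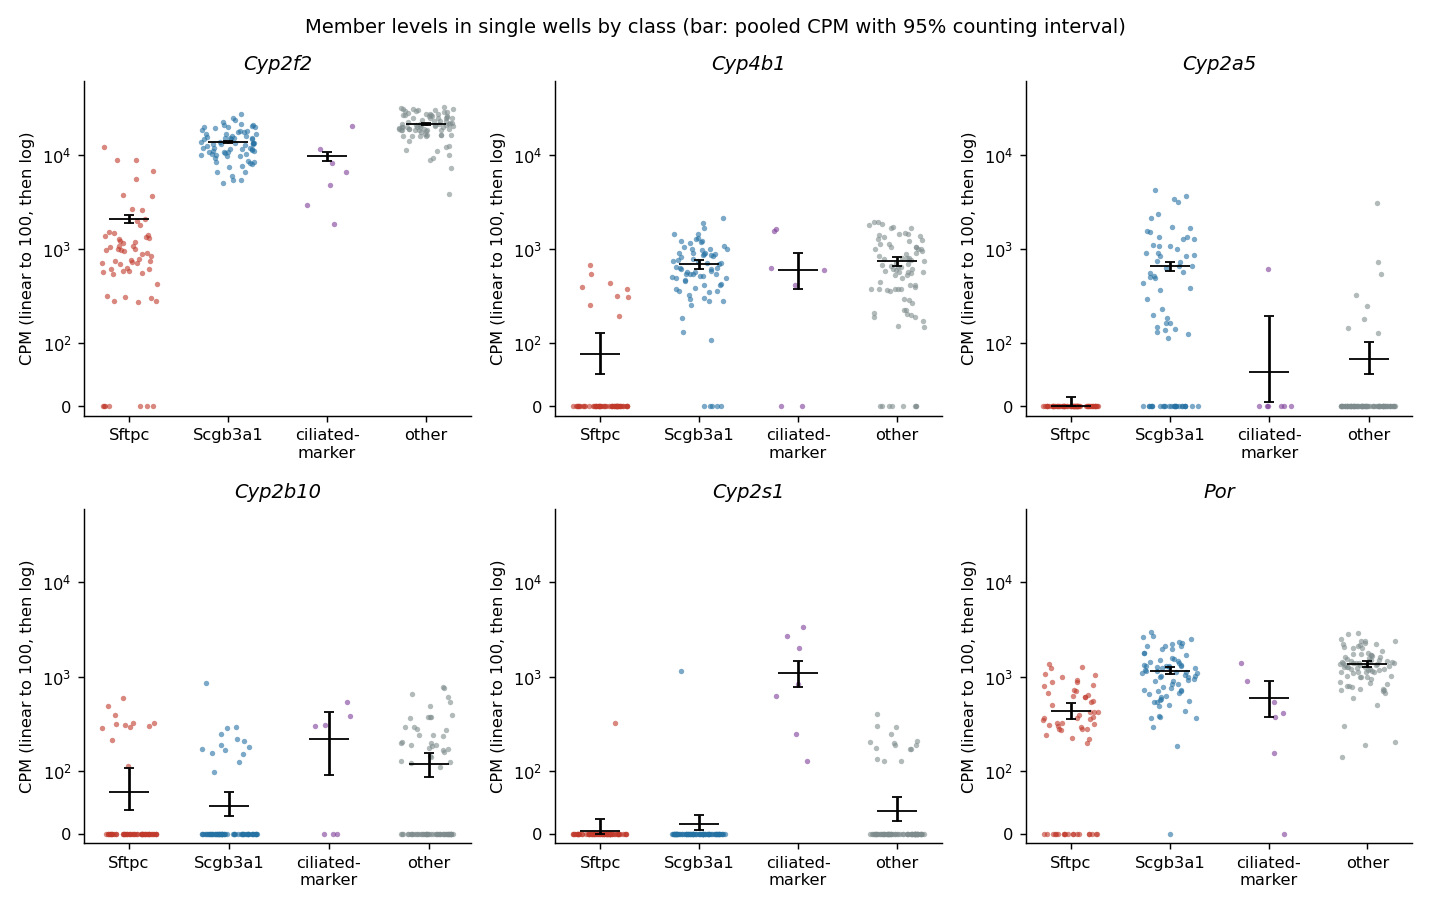
CPM of 6 members in single wells (points), for the Sftpc, Scgb3a1, ciliated-marker and other wells from left to right, on a vertical axis that is linear to 100 CPM and logarithmic above. The black bar is the pooled CPM of the class with its 95% counting interval. Cyp2f2, Cyp4b1 and Por were lowest in Sftpc wells, Cyp2a5 was highest in Scgb3a1 wells and Cyp2s1 in ciliated-marker wells.

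Sftpc wells held much less Cyp2f2, Cyp4b1 and Por messenger RNA than other wells, and no Cyp2a5. The pooled CPM of a class takes its wells as 1 library, and its ratio between classes was the measure of difference. A gene was measured when both classes together held at least 20 of its counts, and was called higher or lower from 2-fold. Of the 5 members measured, 4 were lower in Sftpc wells and 0 were higher. Over all 3636 genes measured, 8.97% were lower and 19.3% higher (28.2% either way), with a median log2 ratio of 0.25, against -2.58 over the members with Cyp2a5 at its bound.

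Cyp2f2 ranged from 0 to 12151 CPM with a median of 882 in Sftpc wells, against 3777 to 31859 with a median of 20465 in other wells. Of the Sftpc wells, 58 of 63 lay below the lowest of the other wells, and all 63 lay below their median. Pooled, Cyp2f2 was at 2082 CPM (95% Poisson interval 1903 to 2272) in Sftpc wells and 20927 (20515 to 21346) in other wells, 10.1-fold lower, at a log2 ratio of -3.33 (-3.46 to -3.20). It was still detected in 56 of 63 Sftpc wells. Thinned to 3151 counts, it was detected in 42 of the 44 Sftpc wells that had so many, which leaves out the shallowest of the class. The level among Sftpc wells was uneven, with a coefficient of variation over wells of 1.47 in Sftpc wells against 0.287 in other wells, and 1 Sftpc well gave 21.4% of the class's Cyp2f2 counts. In the first set of columns the 6 Sftpc wells pooled to 6019 CPM, and in the next sets to 1393 and 1468 CPM, against 22833, 20041 and 17783 CPM in the other wells of the same sets.

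Cyp4b1, an enzyme of the lung that hydroxylates fatty acids and activates plant toxins, ranged from 0 to 681 CPM with a median of 0 in Sftpc wells, against 0 to 1948 with a median of 614 in other wells. The ranges overlapped, and 62 of 63 Sftpc wells lay below the median of the other wells. It had a count in 9 of 63 Sftpc wells and 75 of 83 other wells. At equal depth it had one in 15.9% of the 44 Sftpc wells and 80.0% of the 80 other wells deep enough to be thinned. Pooled, Cyp4b1 was at 83.1 CPM in Sftpc wells and 737 CPM in other wells, 8.87-fold lower (log2 ratio -3.15, -3.88 to -2.50).

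Por ranged from 0 to 1363 CPM with a median of 319 in Sftpc wells, against 140 to 2898 with a median of 1327 in other wells. Of the Sftpc wells, 62 of 63 lay below the median of the other wells, and 19 held no count. The pooled level was 432 CPM in Sftpc wells and 1367 CPM in other wells, 3.16-fold lower (log2 ratio -1.66, -1.97 to -1.36). The difference was smaller in the first set, at 864 CPM in its 6 Sftpc wells and 1333 CPM in its other wells, a log2 ratio of -0.63 that was under 2-fold.

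Cyp2a5, which hydroxylates coumarin and nicotine in the mouse, had 0 counts in Sftpc wells, and 0 of 63 wells allows a share of wells with a count of up to 4.76% at these depths. Other wells held 35 counts, so that the level was at least 6.00-fold lower in Sftpc wells, taking 3 counts over the class as the floor. One of the other wells gave 22 of those 35 counts, and it had the 0.876% Scgb3a1 that was nearest the class limit. Without that well Cyp2a5 fell under 20 counts and was not measured in this comparison. With the limit on the well total at 20 times the control, which left 10 Sftpc wells, the bound was a log2 ratio of -0.74, and the call was lost. Cyp2b10, a P450 known for its induction in liver through the receptor CAR, was at 66.5 CPM in Sftpc wells and 120 CPM in other wells, a log2 ratio of -0.85 (-1.75 to -0.02) that did not reach 2-fold. It passed 2-fold, at -1.10 to -1.23, when totals were taken without the 5 most abundant genes or scaled by TMM or RLE factors. Cyp2s1 had 1 count in Sftpc wells and 17 in other wells, too few for a ratio.

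Club cell markers moved with these members. Scgb1a1 was at 44944 CPM in Sftpc wells and 318158 CPM in other wells, and Cbr2, a carbonyl reductase of club cells, at 8925 and 28788 CPM. Per 1000 Scgb1a1 counts, Cyp2f2 had 46.3 counts (42.3 to 50.6) in Sftpc wells and 65.8 (64.5 to 67.1) in other wells. Por by the same measure had 9.61 counts (7.86 to 11.6) in Sftpc wells and 4.30 (3.97 to 4.64) in other wells. The 5 Sftpc wells with at least 10% Scgb1a1 gave 7570 of the class's 10817 Scgb1a1 counts, so that the pooled ratios rest largely on them. The class was also split by Scgb1a1 share, with limits chosen after seeing the data. Cyp2f2 had 38.2 counts per 1000 Scgb1a1 counts (33.9 to 42.8) in the 5 wells with at least 10%. It had 46.4 (38.8 to 55.1) in the 26 with 1 to 10%, and 184 (146 to 228) in the 32 with less than 1%. Por had 4.23 (2.89 to 5.97), 12.9 (9.00 to 17.8) and 80.7 (56.5 to 112) in the same wells. Scgb1a1 set these splits and is also the denominator, which favours higher ratios in wells with less of it. How much of the rise comes from this was not tested. In pooled CPM, Cyp2f2 ran the other way over these splits, as given below.

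Among Sftpc wells, the 31 with at least 1% Scgb1a1 pooled to 3126 CPM of Cyp2f2 (2834 to 3441), and the 32 with less pooled to 769 CPM (611 to 954), while the well medians were 999 and 705 CPM. The 5 wells with at least 10% Scgb1a1 held 289 of the 419 counts of the richer wells, at 8386 CPM, and without them the richer wells pooled to 1306 CPM (1091 to 1551). Por was at 507 CPM (394 to 643) in the Scgb1a1-richer wells and 338 CPM (236 to 467) in the poorer ones, with intervals that overlapped. Cyp4b1 gave 17 counts in the richer wells and 3 in the poorer ones. In the Scgb1a1-poorer wells, 27 of 32 held a Cyp2f2 count. The part that Scgb1a1-rich RNA from other cells had in these counts was not tested.

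**Figure D2:**
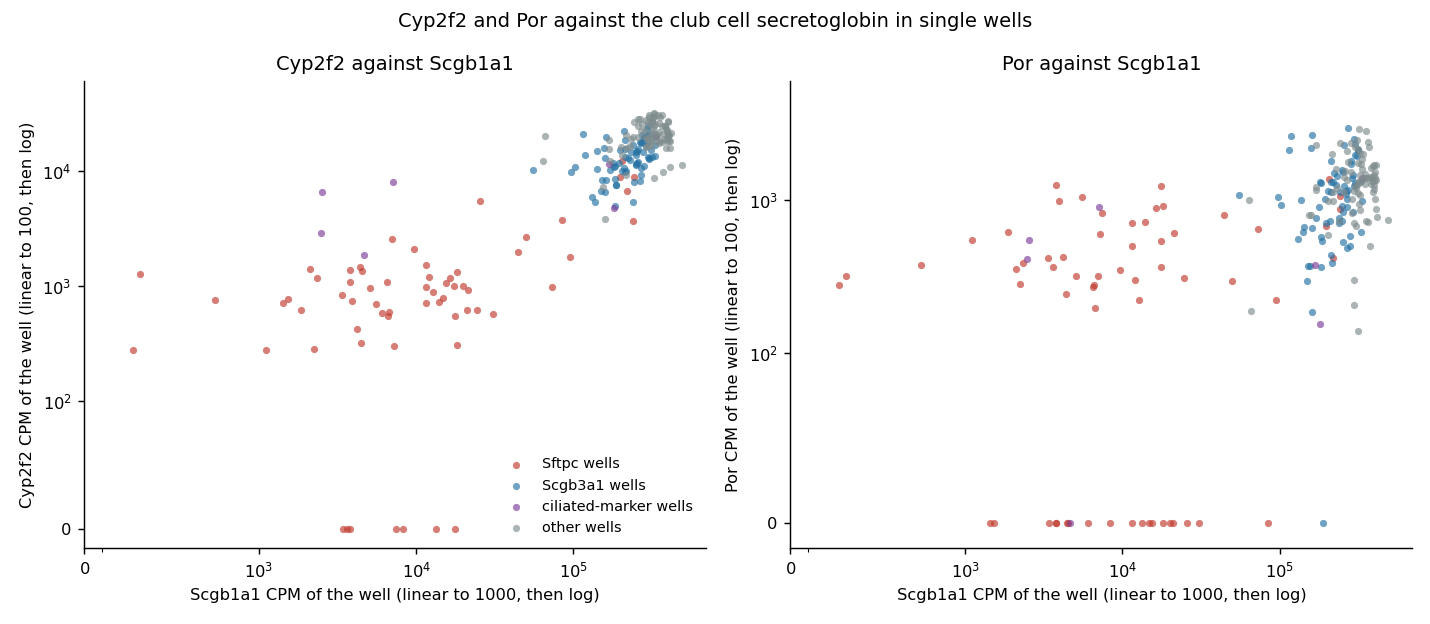
Cyp2f2 (left) and Por (right) CPM of each well against its Scgb1a1 CPM, coloured by class, with axes linear near 0 and logarithmic above. Sftpc wells spread widely over Scgb1a1, with 8 of 63 at or above the lowest other well (64376 CPM), at a median of 0.968% of the well total against 32.2% in other wells, and their Cyp2f2 median was 882 CPM against 20465 CPM.

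Scgb3a1 wells carried most of the Cyp2a5 messenger RNA, 338 of 375 counts, while Cyp2f2 was 1.55-fold lower than in other wells and Cyp4b1 and Por differed by less. Of 6 members measured, 1 was higher and 2 were lower, where 9.59% of all 4318 genes measured were higher and 7.94% lower (17.5% either way). The median log2 ratio was -0.43 over the members and 0.01 over all genes.

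Cyp2a5 ranged from 0 to 4204 CPM with a median of 264 in Scgb3a1 wells, against 0 to 3060 with a median of 0 in other wells. It had a count in 48 of 74 Scgb3a1 wells and 8 of 83 other wells, and at equal depth in 51.4% (39.4 to 63.2%) of Scgb3a1 wells and 7.50% (2.80 to 15.6%) of other wells. Pooled, it was at 659 CPM (590 to 733) in Scgb3a1 wells and 74.7 CPM (52.1 to 104) in other wells, 8.81-fold higher (6.21 to 12.9). Without the single other well that held 22 counts, an alternative chosen after seeing the data, the log2 ratio was 4.55 in place of 3.14. By set of columns Cyp2a5 was at 624, 719 and 389 CPM in Scgb3a1 wells, against 148, 14.1 and 50.6 CPM in other wells, and the last set held too few counts for a call.

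By the amount of Scgb3a1, Cyp2a5 pooled to 804 CPM (601 to 1055) in the 9 wells with 1 to 2% Scgb3a1, 619 CPM (513 to 741) in the 30 wells with 2 to 5%, and 670 CPM (572 to 779) in the 34 wells above 5%, leaving out the 1 Scgb3a1 well that met the ciliated rule. One well gave 29 of the 52 counts between 1 and 2%, and without it, an alternative chosen after seeing the data, that bin was at 398 CPM (252 to 598), the lowest of the 3, so that their order rests on it. The 3 wells between 0.1 and 1% pooled to 940 CPM, with all 22 counts in 1 of them. In the 80 wells under 0.1%, taken from the other wells, it was at 29.2 CPM (15.6 to 50.0).

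Cyp2a4 is a near copy of Cyp2a5, with 98.2% identity between their longest transcripts, so counts may have been split between them by the authors' counting. Over the last 500 bases only 236 columns aligned, with 97.0% identity. Cyp2a4 gave 41 counts in Scgb3a1 wells and 1 in other wells, a ratio of 37.4 (6.35 to 1513). All 22 wells with Cyp2a4 also held Cyp2a5.

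Within the 74 Scgb3a1 wells, Cyp2a5 was unevenly spread. Its coefficient of variation over wells was 1.40, against 0.359 for Cyp2f2 and 0.631 for Cyp4b1 in the same wells. By a rule chosen after values were seen, the genes most like it among 824 with a count in at least 50% of these wells were Bpifa1, a secreted defence protein of the airway, with a Spearman correlation of 0.68, S100a6 with 0.56, Agr2 with 0.50, Ces1d with 0.48 and Ly6e with 0.47. The least alike were Sftpa1 with -0.58, Scgb1a1 with -0.55, Hp with -0.52, Chil1 with -0.45 and Sftpb with -0.44, where the median gene had 0.03. These wells share a total as denominator, and the values are descriptions.

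Bpifa1 and Scgb1a1, taken from that ranking and so no further evidence of it, had well medians of 14556 and 210325 CPM in the 48 Scgb3a1 wells with a Cyp2a5 count, and of 407 and 267678 CPM in the 26 without. The median totals were 7059 counts in wells with Cyp2a5 and 6486 in wells without. Cyp2f2 was at 13264 CPM (12881 to 13655) in wells with Cyp2a5 and 13981 (13425 to 14554) in wells without, and Por at 1053 (947 to 1167) and 1374 (1204 to 1562). Cyp2b10 gave 21 counts in wells with Cyp2a5, at 61.2 CPM (37.9 to 93.6). It gave 2 in wells without, at 11.7 CPM (1.42 to 42.4), and the intervals overlapped. Of the 14 Scgb3a1 wells with Cyp2b10, 12 also held Cyp2a5, against 9.08 wells from the product of the shares of wells with each. The well with the most Cyp2b10, 6 counts, held 26 of Cyp2a5.

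Cyp2b10 as a whole was lower in Scgb3a1 wells, at 44.8 CPM (28.4 to 67.2) against 120 CPM (90.3 to 155) in other wells, 2.67-fold lower. It was sparse, with a count in 14 of 74 Scgb3a1 wells and 34 of 83 other wells, and a well median of 0 in both. Cyp2f2 ranged from 4940 to 26690 CPM with a median of 12935 in Scgb3a1 wells, against 3777 to 31859 with a median of 20465 in other wells. The ranges overlapped, with 68 of 74 Scgb3a1 wells below the median of the other wells. Its pooled log2 ratio of -0.63 (-0.68 to -0.59) lay under 2-fold. Cyp4b1, with 684 CPM in Scgb3a1 wells and 737 CPM in other wells, had a log2 ratio of -0.11 (-0.33 to 0.11). Por, with 1159 and 1367 CPM, had a log2 ratio of -0.24 (-0.40 to -0.07). Cyp2s1 was called lower, at 15.6 CPM in Scgb3a1 wells and 36.3 CPM in other wells, but the interval of its ratio (0.160 to 1.05) included 1. All 8 Cyp2s1 counts of the Scgb3a1 class came from the 1 well that also met the ciliated rule, and without that well Cyp2s1 was at 0 in the class and was not measured.

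**Figure D3:**
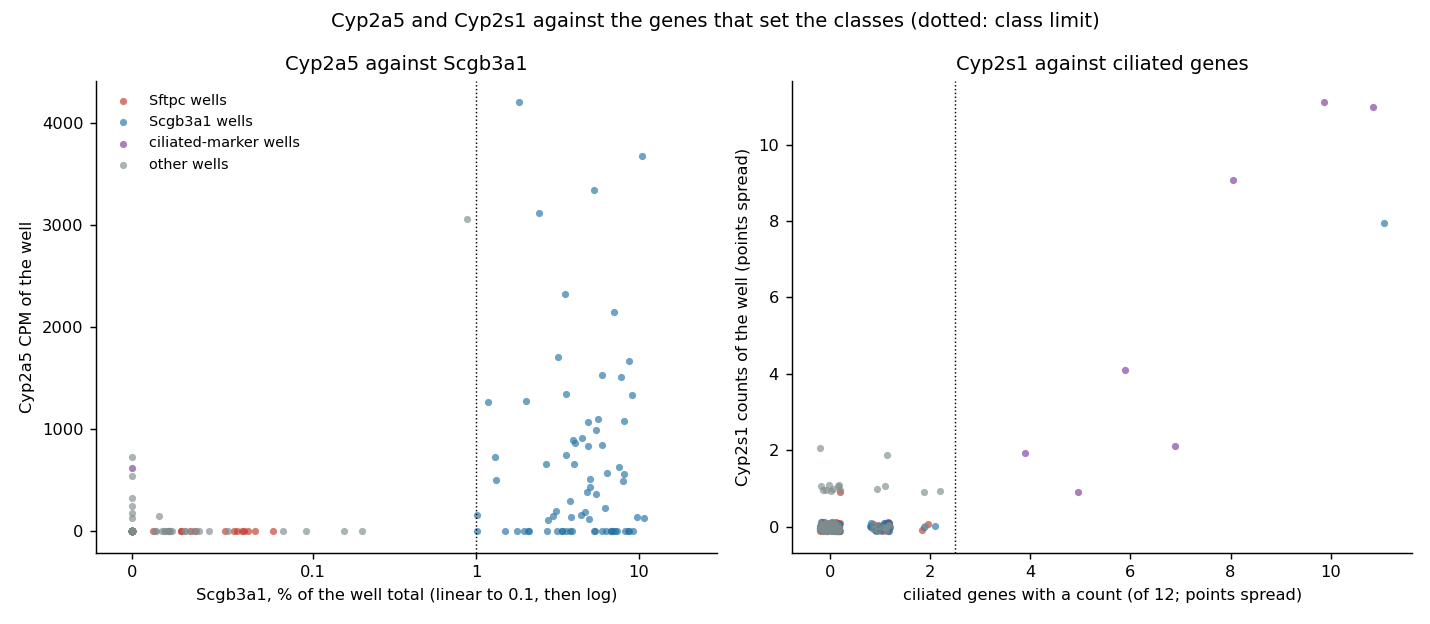
Left, Cyp2a5 CPM of each well against the Scgb3a1 share of its total in %, with the class limit of 1% dotted. Right, Cyp2s1 counts of each well against how many of the 12 ciliated genes had a count, with points spread a little and the class limit dotted. Cyp2a5 sits mostly right of the limit. Left of it, 8 other wells and 1 ciliated-marker well had a Cyp2a5 count, the highest at 3060 CPM. The 8 wells past the ciliated limit held 1 to 11 Cyp2s1 counts each.

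Ciliated-marker wells stood out for Cyp2s1, a P450 of epithelia outside the liver that is induced through the aryl hydrocarbon receptor. Of 6 members measured in these 7 wells, 1 was higher and 2 were lower than in other wells, where 24.5% of all 2478 genes measured were higher and 8.76% lower (33.3% either way). The median log2 ratio was -0.39 over the members and 0.28 over all genes.

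Cyp2s1 ranged from 127 to 3394 CPM with a median of 827 in ciliated-marker wells, against 0 to 401 with a median of 0 in other wells. All 7 ciliated-marker wells had a count, against 15 of 83 other wells, and 5 of the 7 lay above the highest other well. The class was mixed in Scgb1a1. Its 3 wells with at least 1% Scgb1a1 (169154 to 335910 CPM) held 127, 249 and 616 CPM of Cyp2s1. The 4 with less held 827 to 3394 CPM of Cyp2s1, in a split chosen after seeing the data. Pooled, Cyp2s1 was at 1082 CPM (773 to 1473) in ciliated-marker wells and 36.3 CPM (21.1 to 58.1) in other wells, 29.8-fold higher (16.5 to 56.1). The counts were 11, 1, 2, 4, 9, 11 and 2 in the 7 wells, with 10, 5, 4, 6, 8, 11 and 7 ciliated genes in the same order.

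Over all kept wells, Cyp2s1 was at 13.6 CPM (7.05 to 23.8) in the 162 wells with no ciliated gene, 13.6 CPM (3.71 to 34.8) in the 50 with 1, 47.9 CPM (5.81 to 173) in the 7 with 2, and 1092 CPM (805 to 1448) in the 8 with 3 or more. The last group takes in the Scgb3a1 well with 11 ciliated genes, whose 8 counts came to 1146 CPM. Cyp2s1 was at 3394, 127 and 1084 CPM in ciliated-marker wells of the 3 sets, where the first and the middle set each held 1 such well, against 40.7, 37.7 and 16.9 CPM in other wells.

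Cyp2f2 was present in all 7 ciliated-marker wells, from 1851 to 19894 CPM with a median of 6519, against a median of 20465 CPM in other wells. All 7 lay below the median of the other wells, and 2 lay below their lowest. Pooled, Cyp2f2 was at 9603 CPM in ciliated-marker wells and 20927 CPM in other wells, 2.18-fold lower, and 1 well gave 44.2% of its counts. Por, from 0 to 1394 CPM with a median of 413 in ciliated-marker wells, pooled to 595 CPM there and 1367 CPM in other wells, 2.30-fold lower, with 50.0% of its counts from the same well. Neither call held without the last set of columns, which left 2 ciliated-marker wells and log2 ratios of -0.55 for Cyp2f2 and -0.47 for Por, or when 2 ciliated genes sufficed, at -0.83 and -0.81. Per 1000 Scgb1a1 counts, Cyp2f2 had 53.8 (47.7 to 60.5) in the 3 ciliated-marker wells with at least 1% Scgb1a1, against 65.8 in other wells. The 4 ciliated-marker wells with less had 1288 (1015 to 1612), on 76 Cyp2f2 and 59 Scgb1a1 counts. This split was chosen after seeing the data and by the denominator, which favours a high ratio in the 4 wells. How much of the ratio comes from this was not tested. In CPM, Cyp2f2 was lower in those 4 wells, at 5226 (4118 to 6541), than in the 3, at 12440 (11023 to 13989). Scgb1a1 itself had a median of 0.714% of the well total in ciliated-marker wells against 32.2% in other wells. Foxj1, the regulator of motile cilia and one of the genes that set the class, had a count in 5 of the 7 wells.

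The remaining members were not called in these 7 wells. Cyp4b1 was at 595 CPM (373 to 901) in ciliated-marker wells and 737 CPM (661 to 819) in other wells. Cyp2b10 was at 216 CPM (93.4 to 426) and 120 CPM (90.3 to 155). Cyp2a5 had 2 counts in ciliated-marker wells, both in 1 well, and 35 in other wells, a log2 ratio of -0.47 (-3.57 to 1.49). With TMM factors, which shifted all log2 ratios of this class by -1.21, Cyp4b1 and Cyp2a5 were called lower, at -1.52 and -1.68. Cyp2b10 passed 2-fold in 3 alternatives on the sets of columns, with at most 2 ciliated-marker wells in each, and with the well limit at 5 times the control, at log2 ratios of 1.07 to 1.81, and its 0.86 passed a limit of 1.5-fold, while TMM factors put it at -0.35.

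**Figure D4:**
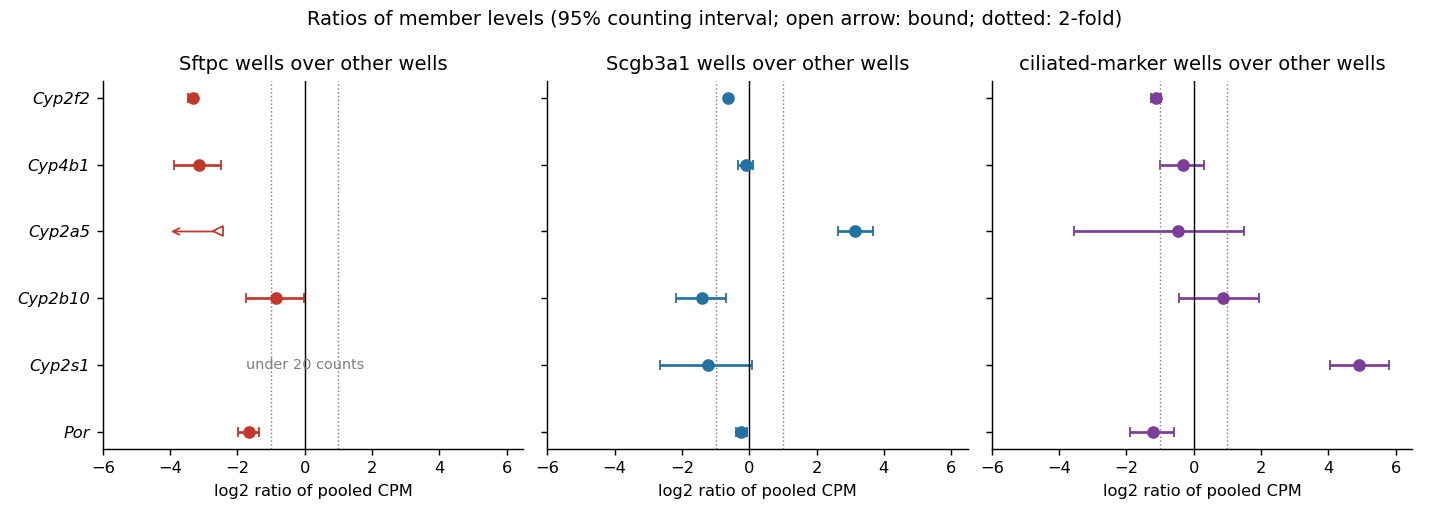
Log2 ratio of pooled CPM of each member in Sftpc wells, Scgb3a1 wells and ciliated-marker wells, each over the other wells, with 95% counting intervals and 2-fold dotted. Cyp2f2 and Cyp4b1 lie beyond -3 in the Sftpc panel, Cyp2a5 at 3.14 in the Scgb3a1 panel and Cyp2s1 at 4.90 in the ciliated-marker panel. The open mark is a bound for Cyp2a5, which had 0 counts in Sftpc wells.

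Cyp1a1, the enzyme of polycyclic aromatic hydrocarbons and a classic target of the aryl hydrocarbon receptor, had 0 counts in all 227 kept wells and in the 59 wells removed for a low total. Zero counts over the kept wells allow up to 2.38 CPM, and 0 of 227 wells allows a share of up to 1.32% of wells with a count. The receptor itself, Ahr, was at 8.31 CPM in Sftpc wells (2 counts) and 76.9 CPM in other wells (36 counts), a ratio of 0.108 (0.0126 to 0.420).

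Across the 227 kept wells, the genes whose CPM was most like that of Cyp2f2, among 572 with a count in at least 50% of wells, were Scgb1a1 with a Spearman correlation of 0.82, Cbr2 with 0.78, Prdx6 with 0.75, Hp with 0.72 and Aldh1a1 with 0.70. The median gene had 0.01. For Cyp4b1 they were Cyp2f2 with 0.65, Aldh1a1 with 0.58, and Scgb1a1, Mgst1 and Gstm1 with 0.53 each. For Por they were Cyp2f2 with 0.66, Scgb1a1 with 0.64, Cp with 0.59, Mgst1 with 0.58 and Cbr2 with 0.54. The wells share 1 sample and differ in class and in total, and Cyp2f2 CPM itself had a correlation of 0.47 with the well total.

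Within the 83 other wells alone the likeness was weaker. Cyp2f2 had 0.14 with Scgb1a1, and among the genes most like it were Trf with 0.46, Cyp4b1 with 0.42, Aldh1a1 with 0.36 and Cp with 0.34. Cyp2f2 had 0.31 with Por in these wells and 0.36 in the 74 Scgb3a1 wells, and Cyp4b1 had 0.42 and 0.39 with Cyp2f2 in the same classes. Within the Scgb3a1 wells, Cyp2f2 had 0.50 with Scgb1a1.

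Genes that serve the P450 enzymes were described from fixed lists. Over all genes measured, 8.97% were lower and 19.3% higher in Sftpc wells than in other wells. The shares were 7.94% and 9.59% in Scgb3a1 wells, and 8.76% and 24.5% in ciliated-marker wells. The lists are small, and no result about a list as a whole is drawn from its count of called genes. A list of 9 genes held electron donors, their reductases and the P450 partners Pgrmc1 and Pgrmc2, which are not electron donors. Of these 9, 7 were measured between Sftpc and other wells. The 4 lower genes were Por, Cyb5a, Pgrmc1 and Pgrmc2, and 1 gene was higher. Pgrmc1, a heme-binding partner of P450 enzymes, was at 58.2 CPM in Sftpc wells and 301 CPM in other wells (log2 ratio -2.37). Cytochrome b5, Cyb5a, which can pass an electron to P450 enzymes, was at 229 and 816 CPM (-1.84), and Pgrmc2 was at 37.4 and 122 CPM (-1.70). Cyb5b, the form of the outer mitochondrial membrane, was the 1 higher gene, at 283 CPM in Sftpc wells and 94.0 CPM in other wells (1.59). Cyb5r3 (0.01) and Fdx1 (0.04) were measured and not called. The list's median log2 ratio, with Pgrmc1 and Pgrmc2 counted, was -1.66, and -0.85 without Por. None of the 7 was called in Scgb3a1 wells, and 2 were lower in ciliated-marker wells, Por and Pgrmc2. Pgrmc2 had 1 count there, and the interval of its ratio included 1.

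Of 12 genes of heme synthesis and breakdown, 6 were measured between Sftpc and other wells. Of these, 2 were higher and 1 lower, where 19.3% of all genes measured were higher and 8.97% lower. Alas1, which begins heme synthesis, was at 187 CPM in Sftpc wells and 912 CPM in other wells, 4.88-fold lower (log2 ratio -2.29). The heme oxygenases Hmox1, with 54.0 CPM in Sftpc wells and 14.9 CPM in other wells, and Hmox2, with 70.6 and 21.4 CPM, were higher on 20 and 27 counts in all. No gene of the list was called in Scgb3a1 wells or in ciliated-marker wells, where 5 and 3 were measured.

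Of 17 receptors and regulators of P450 genes, 13 had a count and 4 were at 0, namely Ahrr, Nr1i2, Nr1i3 and Hnf4a. Of the 13 measured, 2 were lower in Sftpc wells than in other wells, Ahr at a log2 ratio of -3.21 and Rxra at -1.78 on 23 counts in all. Cebpa, at 295 CPM in Sftpc wells and 72.6 CPM in other wells, and Nkx2-1, at 212 and 91.8 CPM, were higher, with log2 ratios of 2.02 and 1.21. Over all genes measured, 8.97% were lower and 19.3% higher in Sftpc wells. The gene of the list with the most counts, Nfe2l2, was at 353 CPM in Sftpc wells and 261 CPM in other wells (0.44). In Scgb3a1 wells Arnt, the partner of Ahr, had 3 counts against 18 in other wells (-2.72, -5.12 to -0.94), and Foxa2 was at 21.4 CPM against 53.4 CPM (-1.32). In ciliated-marker wells 3 of 11 measured were lower, where 8.76% of all genes measured were. They were Ahr, Cebpa and Keap1, each on 1 count and with a ratio interval that included 1.

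Of 8 flavin monooxygenases, epoxide hydrolases and Nqo1, 4 were measured. Of these, 3 were lower in Sftpc wells than in other wells, where 8.97% of all genes measured were lower. Ephx1, the microsomal epoxide hydrolase, was at 191 CPM in Sftpc wells and 630 CPM in other wells (log2 ratio -1.72). Nqo1 had 0 counts in Sftpc wells against 20 in other wells, at least 3.43-fold lower. In Scgb3a1 wells Ephx1 (-1.13) and Nqo1 (-2.45) were lower. In ciliated-marker wells Fmo2 (-1.04) was lower, on 3 counts there and with a ratio interval that included 1.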

How the data were processed

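Counts of 24781 genes in 288 wells were analysed as deposited. The authors aligned reads with STAR to mm10, per the submitters' processing notes. Per the labels' protocols the primer held a molecular barcode. The annotation, the counting tool, strand use and the collapse of barcodes were not given in the sources used here. If barcodes were not collapsed, counts are not independent molecules, and intervals are too narrow.

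Wells were kept above 10 times the higher control total, which left out 59, and put into classes by marker genes that are not members. No doublet caller was run. Levels were pooled CPM with exact Poisson intervals, shares had Clopper-Pearson intervals, and ratios had exact conditional binomial intervals, all at 95%. With 1 sample and no animal labels there was no test, and the difference between classes has no replicate check. A class at 0 was given 3 counts, and a share of 0 wells was read as up to 3 wells. A bound that pointed against the counts was set to no difference. Thinning to 3151 counts left out 23 kept wells, most of them Sftpc wells. It kept 44 of 63 Sftpc wells, all 74 Scgb3a1 wells, 6 of 7 ciliated-marker wells and 80 of 83 other wells. The ratio script was tested on simulated data.

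The genes named were the members, other P450 genes with at least 20 counts, from each list the gene with the most counts and up to 3 called genes of largest ratio per contrast, and the 5 genes of highest Spearman correlation with Cyp2f2, Cyp4b1 and Por. Markers and other genes named beside a result fall outside this rule. Some genes that the rule names are not reported here. The members and lists were chosen with earlier results of these data known. The alternatives varied the well filter, the class limits, scaling (TMM and RLE factors of edgeR 4.0.16 in R 4.3.3), the count minimum, the fold, the sets of columns and single wells. Other steps used Python 3.11.15, numpy 2.4.6, scipy 1.17.1 and pandas 2.3.3. Promoter windows are from RefSeq and gene positions from GENCODE M21.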

Additional observations from a re-analysis of the deposited data

Results flagged for a closer look

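Among the 7 ciliated-marker wells, the highest Cyp2a5 value, 617 CPM from 2 counts in a well of 3241, stood apart from the rest, which were at 0. A criterion for a single distant value was applied to 6 members in this class, and chance meets it in about 1 in 20 groups of spread values. With the other 6 wells at 0, any single well with a count meets it, so that it carries little for so sparse a gene. The 59 wells removed for a low total, 60845 counts in all, also held counts of members, where both controls held 0. They gave 146 counts of Cyp2f2, 6 of Cyp4b1, 7 of Cyp2b10, 10 of Cyp2s1 and 21 of Por, and 0 of Cyp2a5 and Cyp1a1. Their Cyp2f2 level was 2400 CPM, with a count in 39 of the 59 wells.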

How the results depend on the processing

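Of 82 recomputed counts of members past 2-fold, 75 stayed within 1.5 times. For Sftpc wells the count was 4, and 2 in the first set of columns alone. For Scgb3a1 wells it was 3, and 1 at 3-fold and 0 in the last set alone. For ciliated-marker wells it was 3, and 5 with TMM and 5 with RLE factors, 1 at 3-fold and 1 in the middle set alone. TMM and RLE factors moved the log2 ratios of that class by -1.21 and -0.98, and those of Sftpc wells by -0.39 and -0.25. The Cyp2a5 ratio in ciliated-marker wells, -0.47, turned to 1.20 without the last set and to 2.06 in the first set alone, where 1 well holds both counts. Cyp2f2 and Cyp4b1 kept their call in Sftpc wells in all 28 alternatives, and Por in 27 of 28. Cyp2f2 and Por in ciliated-marker wells lost their call in 6 of 27 alternatives each. Cyp2a5 kept its call in Scgb3a1 wells in the 26 alternatives that could be computed, at log2 ratios of 1.97 to 5.67, and Cyp2s1 in ciliated-marker wells in 25, at 3.69 to 6.01. The causes were not tested. Sftpc wells had the lowest totals, so that 1 count weighs more there, and the 7 ciliated-marker wells limit every value of that class. No paired analysis was possible because the results come from no test and the wells carry no animal labels.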
